A study of Mus musculus with 4 samples.

Results

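The genes described here were 10 of the 55385 genes in the count table of granulosa cells from cultured mouse follicles, and they were chosen by their counts, which differed between the libraries numbered 1 and those numbered 2 in both groups. Each was found by its symbol: Sox12, March8, Nfix, Psd3 and Nanp were higher in both libraries numbered 2, and Zfp740, Mir686, Pttg1ip, Prps2 and Mapk14 were higher in both libraries numbered 1. The choice used the measured counts, so the differences between numbers are given as a description of these genes, without a test. Of the 10 genes, 10 passed the filter on low counts, which kept 19259 genes. Nanp and Mir686 passed it only through the libraries of the number in which they were high.

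The study asked what neurotrophin-4 (NT-4), a ligand of the receptor TRKB, does to preantral follicles grown in vitro. Follicles were dissected from the ovaries of female Kunming mice, an outbred stock, aged 12 to 14 days, and were cultured singly in wells for 6 days. The Control group (n = 2) was grown in medium with follicle-stimulating hormone, fetuin, insulin, transferrin and albumin, and the NT4 group (n = 2) in the same medium with NT-4 added, so that both groups share the hormone and the culture. RNA was sequenced in bulk from the granulosa cells left after the oocytes were taken. The libraries carry the names Control 1, Control 2, NT4 1 and NT4 2. The samples of a group came from independent experiments, as the study's text states. The culture experiments of all groups were run in parallel, as the study's text also states. What the number marks, and whether the same number means the same experiment in both groups, is not given in the sources used here. In bulk RNA, fewer cells of a type and less RNA per cell cannot be told apart.

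The libraries held 49520092 (Control 1), 73743901 (Control 2), 61980073 (NT4 1) and 78704020 (NT4 2) counts, so both libraries numbered 2 were deeper than both numbered 1. All 12 granulosa markers examined were detected, among them the hormone receptor gene Fshr at 109 to 159 CPM (counts scaled by the library total). Their summed level was 12813 CPM in Control 1 and 11034 in NT4 1, against 16013 in Control 2 and 17445 in NT4 2, with 0 called (0.0363% of the genes tested). Whether libraries overlap was read from log2 CPM with TMM scaling, which corrects for composition. Counts on CPM by library total are added for all genes tested and for some of the lists. Of the 12, 11 did not overlap between numbers, against 49.1% of the genes tested (48.6% on CPM by library total): 9 were lower in libraries numbered 1, and 2, Amh and its receptor gene Amhr2, were higher there. Inha, which encodes the inhibin alpha subunit, gave 5855 to 8687 CPM of the sum, while Amh was at 303 CPM in Control 1 and 393 in NT4 1 against 151 in Control 2 and 89.6 in NT4 2. The cell cycle list also lay apart by number, at 1541 and 1681 CPM summed in libraries numbered 1 against 1721 and 1814 in those numbered 2. Of its 10 genes, 9 did not overlap, against 49.1% of the genes tested, and 7 on CPM by library total, against 48.6%. Among other marker lists, summed levels were 76.9 to 113 CPM for 12 oocyte markers, 1349 to 1933 for 13 of theca and stroma, 1.44 to 3.36 for 8 of macrophages, 19.5 to 28.7 for 7 of endothelium, 34.3 to 43.3 for 6 of surface epithelium with Krt19 at 0, and 2662 to 4475 for 10 genes of dissociation stress. Oocyte, macrophage, endothelial and surface epithelium sums were each higher in both libraries numbered 1 than in both numbered 2. Gene by gene, 6 of 11 tested oocyte, 3 of 4 macrophage, 1 of 7 endothelial and 1 of 3 surface epithelium markers did not overlap, beside the same 49.1%. On CPM by library total the oocyte marker Ooep also did not overlap, at 6.46 CPM in Control 1 and 5.28 in NT4 1 against 4.72 in Control 2 and 5.20 in NT4 2. Cdh5 alone gave 16.4 to 25.5 CPM of the endothelial sum. The part of any of these lists in the differences below was not tested.

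Granulosa cells surround the oocyte, respond to follicle-stimulating hormone and make oestradiol, and they exchange metabolites and signals with the oocyte as the follicle grows. The 10 genes belong to no common pathway. Sox12 and Nfix encode transcription factors, March8 a membrane-bound ubiquitin ligase that removes proteins from the cell surface, Psd3 an exchange factor for the small GTPase ARF6, Nanp a phosphatase of sialic acid synthesis, Zfp740 a zinc finger protein, Pttg1ip a protein that binds securin, Prps2 an enzyme that makes phosphoribosyl pyrophosphate, the donor for nucleotide synthesis, and Mapk14 the stress-activated kinase p38 alpha. Mir686 is annotated as a microRNA gene, whose hairpin precursor would be cut to a mature RNA that pairs with targets through its seed.

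The sequence annotated as Mir686 is printed first, because its place in another gene bears on what its counts are. In RefSeq (GRCm38.p6) the hairpin lies on the minus strand at chr14:54616677-54616785, and the capitals mark the mature microRNA. The second line is the mature microRNA, at chr14:54616746-54616767, with its seed (bases 2 to 8) in capitals.
Mir686 hairpin: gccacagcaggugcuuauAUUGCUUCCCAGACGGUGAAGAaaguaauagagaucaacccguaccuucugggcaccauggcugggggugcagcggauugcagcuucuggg
mmu-miR-686: aUUGCUUCccagacggugaaga
Of the 1738 mature mouse microRNAs in the table, 1 other, mmu-miR-7231-3p, has the same seed. All 109 bases of the hairpin lie on the same strand within the coding part of exon 2 of Psmb5 (ENSMUST00000022803.5), at positions 266 to 374 of its 899 bases. Psmb5 encodes a catalytic subunit of the proteasome. A read from this stretch of the Psmb5 messenger RNA therefore carries the same letters as the hairpin, and the counts given to Mir686 are not a measure of the mature microRNA.

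Promoter windows, from 250 bases before to 50 after an annotated start, were matched by symbol for 6 of the 10 genes (Sox12, Zfp740, Pttg1ip, Prps2, Mapk14 and Nfix). The windows of 3 genes with large differences in either direction are shown: Sox12 (chr2:152397997-152398296, minus strand), the upstream of the 2 Zfp740 windows (chr15:102203750-102204049, plus strand) and Pttg1ip (chr10:77581405-77581704, plus strand). Capitals mark matches on either strand to the GC box GGGCGG and the CCAAT box CCAAT, and overlapping matches run together.
Sox12 promoter: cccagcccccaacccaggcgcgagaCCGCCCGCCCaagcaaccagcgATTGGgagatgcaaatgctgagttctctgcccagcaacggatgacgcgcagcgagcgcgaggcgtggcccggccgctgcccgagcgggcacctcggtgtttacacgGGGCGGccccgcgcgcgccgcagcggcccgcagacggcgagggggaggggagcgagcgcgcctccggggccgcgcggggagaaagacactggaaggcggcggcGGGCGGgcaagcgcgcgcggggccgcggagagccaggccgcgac
Zfp740 promoter: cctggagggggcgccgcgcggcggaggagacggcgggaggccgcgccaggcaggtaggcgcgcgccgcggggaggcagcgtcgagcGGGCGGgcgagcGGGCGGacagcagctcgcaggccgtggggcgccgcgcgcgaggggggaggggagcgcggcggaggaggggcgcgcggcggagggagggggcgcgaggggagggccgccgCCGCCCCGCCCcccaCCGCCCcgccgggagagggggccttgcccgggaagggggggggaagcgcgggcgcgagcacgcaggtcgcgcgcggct
Pttg1ip promoter: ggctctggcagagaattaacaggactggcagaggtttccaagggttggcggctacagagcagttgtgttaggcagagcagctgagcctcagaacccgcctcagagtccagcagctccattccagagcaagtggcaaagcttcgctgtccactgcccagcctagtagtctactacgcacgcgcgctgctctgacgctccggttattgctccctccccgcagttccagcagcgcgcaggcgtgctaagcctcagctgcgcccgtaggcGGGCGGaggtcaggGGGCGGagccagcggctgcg
The Sox12 window was 76.7% GC with 47 CpG dinucleotides, 4 GC boxes and 1 CCAAT box. The Zfp740 window was 85.3% GC with 54 CpG dinucleotides and 5 GC boxes, and it lies inside the span of Csad, a gene on the opposite strand. The Pttg1ip window was 63.3% GC with 20 CpG dinucleotides and 2 GC boxes. Over all 32851 windows the median was 52.7% GC and 7 CpG dinucleotides, 35.7% held a GC box and 37.4% a CCAAT box. Neither TATAAA nor the E box CACGTG, found in 13.6% and 7.15% of all windows, occurred in the 3 windows. Among all 11 windows of the 6 genes, with 44.3 to 85.3% GC and 2 to 54 CpG dinucleotides, 5 held a GC box, 5 a CCAAT box and 0 either of the other motifs. The second Zfp740 window, the Prps2 window, the second Mapk14 window and the first Nfix window held none of the 4 motifs. A match to these letters is a description of the window and not a site.

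In the 4 libraries, the listed genes fell into pairs of like values by number, with Control 1 close to NT4 1 and Control 2 close to NT4 2. The libraries of the 2 numbers did not overlap for 10 of 10 genes, against 49.1% of the genes tested, and lay over 2-fold apart for 10 of 10, against 2.46% of the genes tested. These counts follow from how the genes were chosen. The background was lower, 0.774%, among the 14332 genes with a mean of at least 1 CPM. Those genes were ordered by the gap between the nearest libraries of the 2 numbers. Nanp was in place 1, Mir686 in place 2, Sox12 in place 7 and Mapk14, the last of the 10, in place 94. The order rests on the difference that the genes were chosen by. The gaps of Nanp and Mir686 depend on the prior count.

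**Figure D1:**
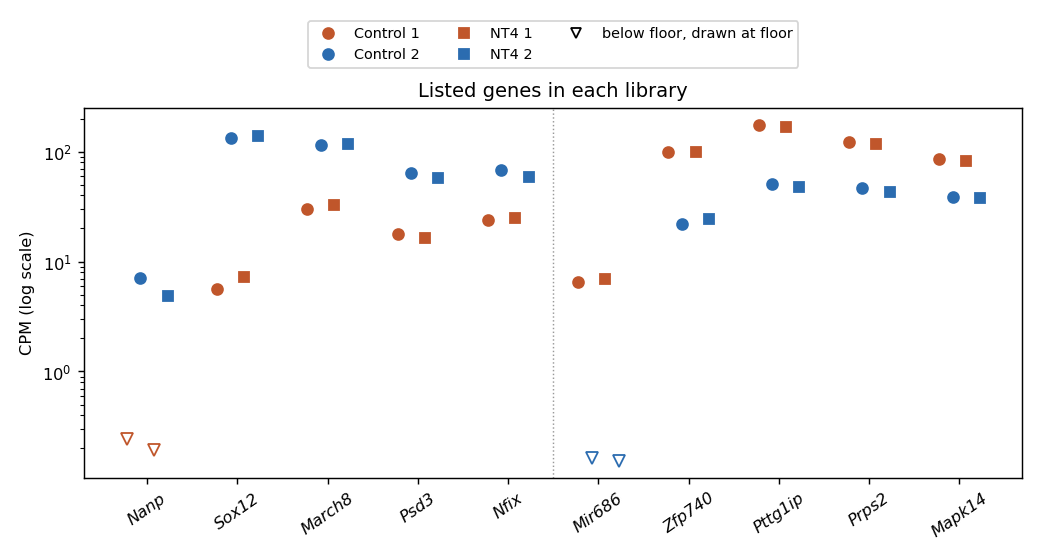
Level of each listed gene in each library, in CPM on a log axis, with circles for Control, squares for NT4, and colour for the replicate number. Open triangles stand at the floor of 3 read pairs for values below it. The genes left of the dotted line were higher in both libraries numbered 2, and those right of it in both numbered 1.

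Sox12 (ENSMUSG00000051817, GRCm38 chr2:152393611-152398063, minus strand) had the widest gap among the listed genes counted well above the floor in all 4 libraries. It encodes a SoxC transcription factor with an HMG box. Its level was 5.63 CPM in Control 1, 7.21 in NT4 1, 132 in Control 2 and 139 in NT4 2. The libraries numbered 2 were 23.4-fold higher in Control and 19.3-fold higher in NT4. The mean was 6.42 ± 1.12 CPM (SD, n = 2) in libraries numbered 1 and 135 ± 4.96 CPM (SD, n = 2) in those numbered 2.

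Nfix (ENSMUSG00000001911, chr8:84699876-84800344, minus strand), a nuclear factor I transcription factor, showed a smaller gap in the same direction. It stood at 23.8 CPM in Control 1, 24.8 in NT4 1, 67.8 in Control 2 and 58.4 in NT4 2. The difference was 2.85-fold in Control and 2.36-fold in NT4.

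March8 (ENSMUSG00000025702, chr6:116338024-116409540, plus strand), the membrane-bound ubiquitin ligase, was at 29.97 CPM in Control 1 and 32.8 in NT4 1. It was at 115.7 CPM in Control 2 and 117.3 in NT4 2, which was 3.86-fold higher in Control and 3.58-fold higher in NT4. The 2 libraries of each number lay within 3 CPM of each other.

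Psd3 (ENSMUSG00000030465, chr8:67689082-68212027, minus strand), the ARF6 exchange factor, was at 17.8 CPM in Control 1, 16.2 in NT4 1, 64.4 in Control 2 and 57.5 in NT4 2. Its libraries numbered 2 were 3.61-fold higher in Control and 3.54-fold higher in NT4. Psd3 has the longest transcript of the 10, 11319 bases. Per kilobase of transcript its level in libraries numbered 1 was 1.43 to 1.57 CPM, beside 1.27 to 1.62 for Sox12, and of the 10 genes Nanp, at 0, was the only one below both.

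Nanp (ENSMUSG00000053916, chr2:151029685-151039398, minus strand), the phosphatase that completes a step of sialic acid synthesis, had 0 counts in Control 1 and in NT4 1. It had 523 counts (7.09 CPM) in Control 2 and 385 counts (4.89 CPM) in NT4 2. A count of 0 allows up to 3 read pairs, taken here as 12 counts, or 0.242 CPM in Control 1 and 0.194 CPM in NT4 1. Against these floors, which cover counting error only, Nanp was at least 29.3-fold higher in Control 2 than in Control 1 and at least 25.3-fold higher in NT4 2 than in NT4 1.

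Zfp740 (ENSMUSG00000046897, chr15:102203249-102215606, plus strand), the zinc finger gene, had the widest gap in the other direction apart from Mir686. It was at 98.8 CPM in Control 1, 99.2 in NT4 1, 21.9 in Control 2 and 24.4 in NT4 2. The libraries numbered 1 were 4.51-fold higher in Control and 4.07-fold higher in NT4.

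Pttg1ip (ENSMUSG00000009291, chr10:77581720-77598732, plus strand), whose product carries securin into the nucleus, was the most abundant of the 10 in CPM in libraries numbered 1. It was at 174 CPM in Control 1 and 166 in NT4 1, against 51.1 in Control 2 and 48.1 in NT4 2. The difference was 3.42-fold in Control and 3.45-fold in NT4. Per kilobase of transcript, Pttg1ip was also the highest of the listed protein-coding genes in libraries numbered 1, at 72.4 to 76.1 CPM per kilobase.

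Prps2 (ENSMUSG00000025742, chrX:167346322-167382749, minus strand), the nucleotide precursor enzyme, was at 124 CPM in Control 1, 118 in NT4 1, 46.7 in Control 2 and 43.2 in NT4 2. Its libraries numbered 1 were 2.65-fold higher in Control and 2.72-fold higher in NT4.

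Mapk14 (ENSMUSG00000053436, chr17:28691329-28748406, plus strand), p38 alpha, had the smallest gap of the 10. It was at 85.5 CPM in Control 1, 81.7 in NT4 1, 38.8 in Control 2 and 37.9 in NT4 2, a difference of 2.20-fold in Control and 2.16-fold in NT4.

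Mir686 (ENSMUSG00000076128, chr14:54616677-54616785, minus strand) had 322 counts in Control 1 and 431 in NT4 1, which were 6.50 and 6.95 CPM. It had 2 counts in each of Control 2 and NT4 2, 0.0271 and 0.0254 CPM, which is below the floor. Taken as read pairs of about 4 counts, 188 pairs in libraries numbered 1 stood against 1 in those numbered 2, a ratio of 257 per library total (exact 95% binomial interval 45.6 to 10206, counting error only).

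**Figure D2:**
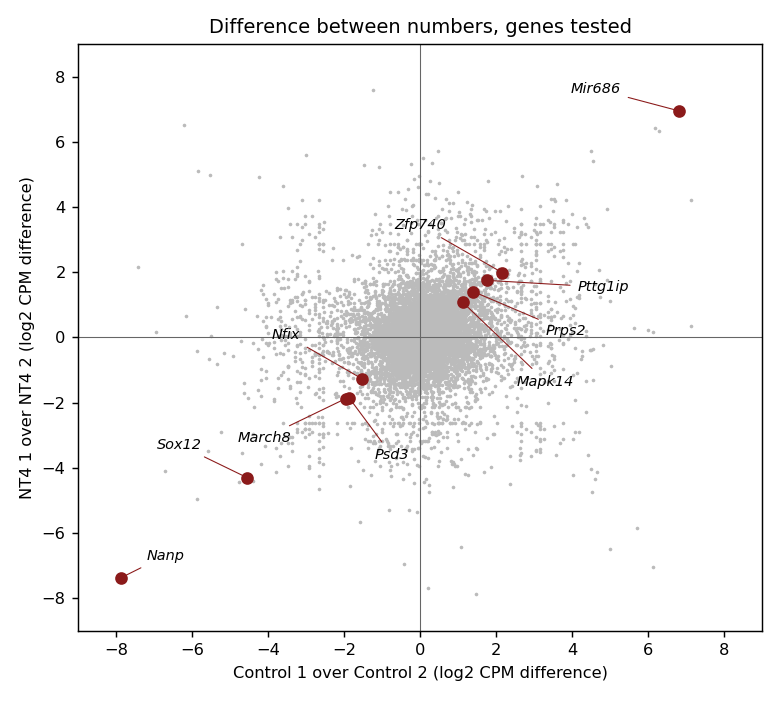
Difference between libraries numbered 1 and 2 on the log2 CPM scale (prior count 2), within Control on the x axis and within NT4 on the y axis. Grey points are the 19259 genes tested and red points the 10 listed genes, which lie near the diagonal because they were chosen for a like difference in both groups. The positions of Nanp and Mir686, at or below the floor in 2 libraries each, depend on the prior count.

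The listed genes that share exon bases with another gene were set beside that gene, because reads from shared bases can be given to either. Psmb5, which holds the whole Mir686 hairpin, was at 83.5 CPM in Control 1, 79.6 in NT4 1, 100.02 in Control 2 and 109.9 in NT4 2. It was lower in both libraries numbered 1, opposite to Mir686, by a log2 difference of −0.39 ± 0.10 (SE), which did not pass the threshold (edgeR adjusted p = 0.372). Mir686 made up 7.23% of the summed counts of both features in Control 1 and 8.04% in NT4 1, against 0.0271% in Control 2 and 0.0231% in NT4 2. The sum of the 2 features was 90.0 and 86.5 CPM in libraries numbered 1 and 100.05 and 109.9 in those numbered 2. The Mir686 difference therefore reversed when the features were summed, to −0.28 on the log2 scale.

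Nanp shares 146 bases of its first exon (chr2:151039237-151039382) with the first exon of Ninl on the same strand, and 90 of these are coding in Nanp. Ninl, which encodes a centrosomal protein related to ninein, was at 51.9 CPM in Control 1, 47.8 in NT4 1, 53.3 in Control 2 and 44.5 in NT4 2. Its libraries overlapped between numbers, with a log2 difference of 0.0015 ± 0.11 (SE, adjusted p = 0.997) that changed sign under several settings. Nanp made up 11.7% of the summed counts in Control 2 and 9.89% in NT4 2. The sum was 51.9 and 47.8 CPM in libraries numbered 1 and 60.4 and 49.4 in those numbered 2, which overlapped, and its log2 difference was −0.16.

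Zfp740 shares 278 exon bases with Csad on the opposite strand. The library kit marked strand, but whether the counting used it is not given in the sources used here. Csad, an enzyme of taurine synthesis, was at 21.6 CPM in Control 1, 23.5 in NT4 1, 21.1 in Control 2 and 20.4 in NT4 2, a log2 difference of 0.09 ± 0.13 (SE, adjusted p = 0.809). The sum of Zfp740 and Csad was 120 and 123 CPM in libraries numbered 1 against 43.0 and 44.8 in those numbered 2, so the Zfp740 difference was still present in the sum. The other features overlapping March8, Prps2, Mapk14, Nfix and Psd3 were at or near 0 in every library, with at most 0.194 CPM. No feature overlaps Sox12 or Pttg1ip in the annotation.

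**Figure D3:**
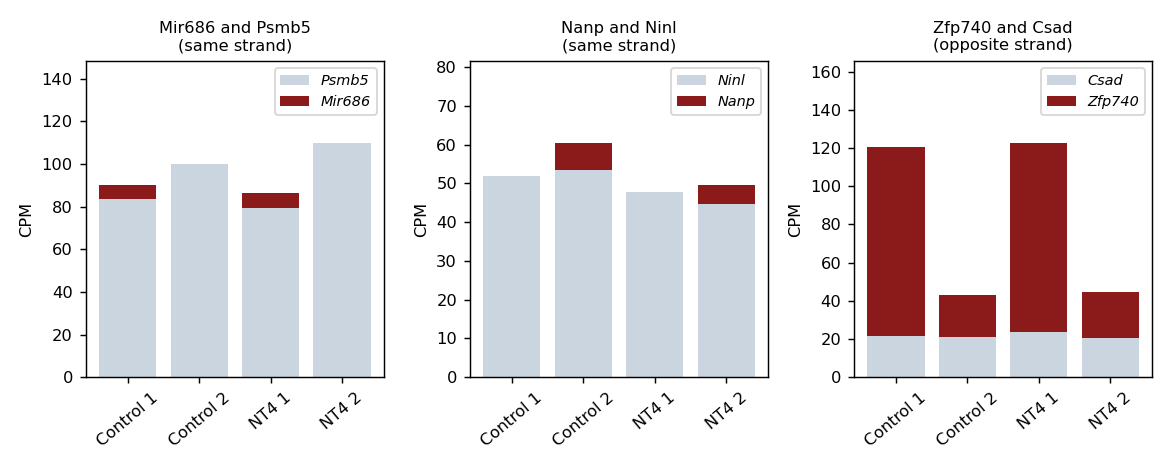
CPM of Psmb5, Ninl and Csad (grey) and of the listed gene that shares exon bases with each (red, stacked on top) in each of the 4 libraries, with linear axes from 0. Mir686 and Nanp are thin parts of their bars, and Zfp740 is 80.9 to 82.1% of its bar in libraries numbered 1 and 50.9 to 54.4% in those numbered 2.

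The nearest tested gene on either side of each listed gene was examined next, to see whether its neighbours differed with it. Of these 20 genes, 68 to 1271368 bases away, 0 were called between numbers, against 0.0363% over all genes, and 2 had an unadjusted p under 0.05, against 11.7%. Their log2 differences ran from −2.07 to 1.43 with a median of −0.11 (−0.0011 over all genes tested). The neighbour with the smallest adjusted p was Sumo3, a gene of a small protein modifier that lies 7365 bases downstream of Pttg1ip on the same strand. Sumo3 was at 101 CPM in Control 1, 52.6 in NT4 1, 179 in Control 2 and 127 in NT4 2, so it was lower in libraries numbered 1, the opposite direction to Pttg1ip. Its log2 difference was −1.08 ± 0.14 (SE, edgeR adjusted p = 0.239, and 5.67e-07 with DESeq2), and it ranged from −1.56 to −0.63 with 1 library left out. Trmt1, a tRNA methyltransferase gene 68 bases from Nfix, differed by 0.25 ± 0.10 (SE, adjusted p = 0.437) on the log2 scale, opposite to Nfix. Dand5, the other flank of Nfix, was at 2.26 CPM in Control 1, 3.34 in NT4 1, 4.49 in Control 2 and 4.60 in NT4 2, a log2 difference of −0.75 ± 0.25 (SE, adjusted p = 0.408) in the direction of Nfix, and it and Sumo3 were the 2 with an unadjusted p under 0.05. Zcchc3, 13892 bases upstream of Sox12, was at 18.2 to 20.6 CPM in the 4 libraries, a log2 difference of −0.12 ± 0.13 (SE, adjusted p = 0.735).

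Relatives of the listed genes, from lists of paralogues and pathway partners, were examined for a like gap. Of 63 such genes with a row, 58 were tested, and edgeR called 0 between numbers, against 0.0363% of all genes. Without adjustment 8 had p under 0.05, against 11.7% of all genes, and DESeq2 called 1, Sox4, against 1.77%. The numbers did not overlap for 33 of the 58, against 49.1% of all genes, and for 30 of the 58 on CPM by library total, against 48.6%. The median log2 difference was −0.04, against −0.0011 over all genes, and the largest in either direction were −0.68 and 0.91.

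Among the transcription factors, Sox4, which belongs with Sox12 to the SoxC group, was at 507 CPM in Control 1, 558 in NT4 1, 393 in Control 2 and 313 in NT4 2. Its log2 difference was 0.57 ± 0.14 (SE, edgeR adjusted p = 0.359, DESeq2 adjusted p = 0.0236), opposite to that of Sox12. The other SoxC gene, Sox11, was at 2.06 to 3.19 CPM, with a log2 difference of 0.45 ± 0.26 (SE, adjusted p = 0.526). Nfia, Nfib and Nfic, the paralogues of Nfix, had log2 differences of −0.12, 0.13 and −0.06, with a smallest adjusted p of 0.734, and Nfic changed sign once a GC trend was removed. None of these 5 genes showed a gap like that of its listed relative. Only the listed genes were chosen for their gap, so a wider gap in them follows largely from the choice.

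Among the enzymes and kinases, Prps1, which makes the same product as Prps2, was at 59.2 CPM in Control 1, 54.9 in NT4 1, 59.4 in Control 2 and 51.2 in NT4 2. Its log2 difference was 0.02 ± 0.10 (SE, adjusted p = 0.95), and it turned to −0.01 with a GC trend removed. Of the 9 tested genes of phosphoribosyl pyrophosphate synthesis and use, 0 were called, and their log2 differences lay between −0.30 and 0.24. The p38 pathway list held upstream kinases and an adaptor, sister kinases, targets, and phosphatases that act on p38. Of its 19 tested genes, 0 were called in either direction, with a median log2 difference of −0.0041. There were 4 unadjusted p-values under 0.05, beside the 0.0363% called and 11.7% under 0.05 of all genes. Those 4, Atf2, Mef2a, Mef2c and the phosphatase gene Dusp10, were all higher in libraries numbered 1, as Mapk14 was, by 0.36 to 0.71 on the log2 scale. Mapk11, p38 beta, was at 0.565 to 1.18 CPM, with its numbers overlapping, and a log2 difference of 0.09 ± 0.58 (SE, adjusted p = 0.961).

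Among the remaining lists, Psd, a paralogue of Psd3, was at 42.5 CPM in Control 1, 39.0 in NT4 1, 53.8 in Control 2 and 75.5 in NT4 2. Its log2 difference of −0.68 ± 0.18 (SE, adjusted p = 0.376) had the direction of Psd3 and did not pass the threshold. The 9 tested ARF6 exchange genes had a median of −0.07 and the 8 MARCH ligases a median of 0.03. The 6 other genes of sialic acid synthesis, transport and removal had a median of −0.20. March1, the closest paralogue of March8, was at 0.191 to 0.525 CPM and its log2 difference was 0.91 ± 0.75 (SE, adjusted p = 0.646). The securin gene Pttg1 and Espl1, which encodes separase, the protease that securin inhibits, had log2 differences of −0.31 and −0.18, with a smallest adjusted p of 0.470. In none of these 4 lists was a gene called.

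**Figure D4:**
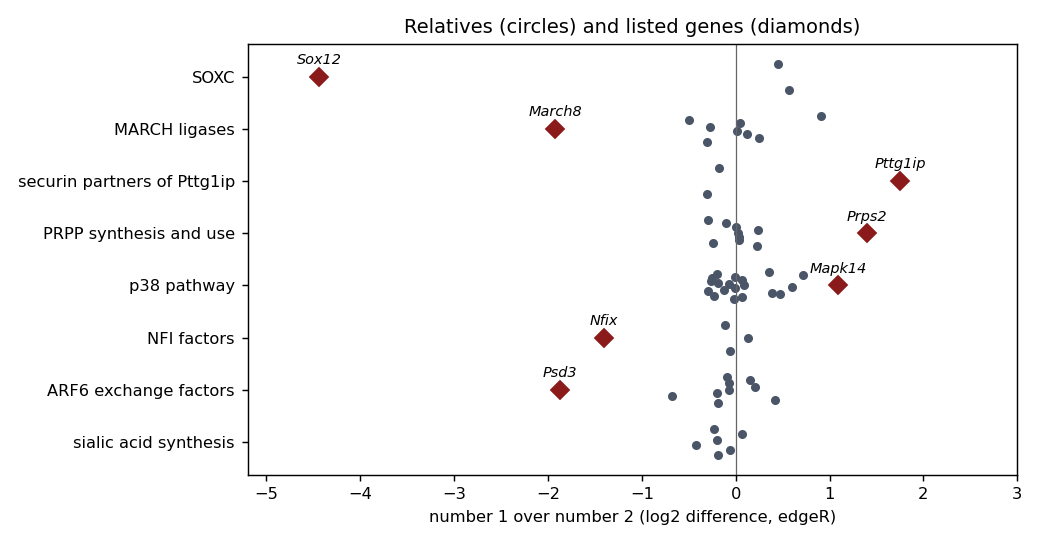
Log2 difference between libraries numbered 1 and 2 for the tested genes of each relatives list (circles) and for the listed gene it belongs to (diamonds), from the edgeR fit. The circles lie between −0.68 and 0.91, and each diamond lies outside the range of its own list. Only the diamonds were chosen for this difference, so their place outside follows largely from the choice. Nanp, at 0 in libraries numbered 1, is not drawn.

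Between NT4 and Control, the direction was not used to choose the genes, although the chosen gap between numbers enters the spread within each group. In this contrast 0 of the 10 genes were called by edgeR's quasi-likelihood test and 0 by DESeq2, with 0 at an unadjusted p under 0.05. Over all 19259 genes edgeR called 0 (0% called), with 383 (1.99%) at an unadjusted p under 0.05, and DESeq2 called 65 (0.338%). The libraries of the 2 groups did not overlap for 0 of the 10, against 26.0% of the genes tested (0 of the 10 against 26.6% on CPM by library total), since the split by number lies across the groups. The fitted log2 differences, NT4 over Control, ran from −0.51 (Nanp) to 0.12 (Sox12), with SEs of 0.48 to 2.31. Their median was −0.05 (0.0045 over all genes). The labels name no pairing. With the replicate number as a further term, SEs were 0.088 to 0.37 and 0 of the 10 were called.

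Sox12 was at 68.8 ± 89.3 CPM in Control and 73.1 ± 93.2 in NT4 (SD, n = 2 each), a log2 difference of 0.12 ± 1.65 (SE, edgeR adjusted p = 0.9999). Pttg1ip was at 113 ± 87.3 CPM in Control and 107 ± 83.4 in NT4 (SD, n = 2 each). The SD was above the mean for Sox12 and below it for Pttg1ip, and each group holds 1 library of each number. Within a number, NT4 1 differed from Control 1 by 0.37 for Sox12 and −0.06 for Pttg1ip on the log2 scale, and NT4 2 from Control 2 by 0.10 and −0.06. The widest such difference was −0.50, for Nanp in libraries numbered 2. Nfix was higher in NT4 1 than in Control 1 by 0.07 and lower in NT4 2 than in Control 2, at −0.19.

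**Figure D5:**
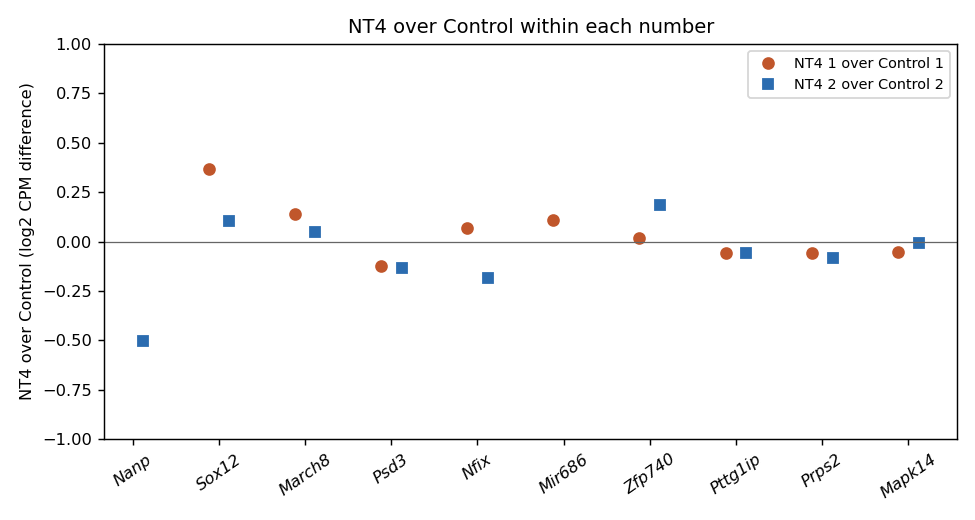
Log2 CPM difference of NT4 over Control (prior count 2) for each listed gene, between the libraries numbered 1 (circles) and between those numbered 2 (squares). Each point compares 2 libraries, so it has no error bar. All points lie between −0.50 and 0.37, and Nanp in number 1 and Mir686 in number 2 are left out because both libraries were below the floor.

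The listed genes were compared with each other and with the rest of the table on features that the choice did not use. They lie on 8 chromosomes, with 2 each on chromosomes 2 and 8. The 5 genes higher in libraries numbered 1 had a median transcript GC content of 51.1% and the 5 higher in those numbered 2 of 50.2%, against 49.6% over the genes tested. Their median transcript lengths were 3592 and 4611 bases, against 2848. Libraries differed slightly in GC: the count-weighted mean was 49.2% in both libraries numbered 1 and 49.5% in both numbered 2, and the median log2 difference fell from 0.15 in the lowest of 10 classes of genes by GC to −0.08 in the highest. With the GC trend removed, the listed genes kept their directions, with log2 differences of −4.35 for Sox12 and 1.17 for Mapk14. With all libraries thinned to the total of the smallest, the log2 difference of Sox12 was −4.43 and that of Zfp740 2.08, beside −4.44 and 2.07 in the full libraries. The other 8 also kept their directions when thinned. Kept directions follow largely from the choice of genes that differed between numbers in both groups.

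Over all genes, 7 of 19259 (0.0363%) were called between numbers, 5 higher (0.0260%) and 2 lower (0.0104%) in libraries numbered 1, with 2245 at an unadjusted p under 0.05. Of the 7, 5 were listed genes, which follows from the choice. The other 2 were Rps3a2, a processed pseudogene (108 CPM in Control 1, 155 in NT4 1, 26.3 in Control 2 and 37.2 in NT4 2, log2 difference 2.02 ± 0.09, SE), and Tnr, which encodes the matrix protein tenascin R (26.8, 26.1, 3.11 and 2.78 CPM in the same order, 3.14 ± 0.15, SE). Both had an edgeR adjusted p of 0.0483. Both lost the call with library totals as scaling (0.0697), without a filter (0.138) and with overlapping genes summed (0.0564). That summing joined only Mir686 with Psmb5 and Nanp with Ninl, and the log2 differences of Rps3a2 and Tnr stayed at 2.02 and 3.14. The adjustment runs over all genes tested, the listed genes among them. Rps3a2 also lost the call with number as the only term (0.111). Fits without 1 library could hold number as the only term, and that term alone gave 21 calls in the 4 libraries. In such fits both genes lost the call without Control 2 and without NT4 2, Rps3a2 lost it without any 1 library, and the count was 17 without Control 1, 0 without Control 2 (3162 at an unadjusted p under 0.05), 21 without NT4 1 and 0 without NT4 2 (1973).

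The next genes outside the list did not pass the threshold. Those higher in libraries numbered 1 were Tspan14, B4galt6 and Tmem184a, with log2 differences of 1.59, 2.42 and 2.39 and edgeR adjusted p of 0.0973, 0.103 and 0.147. Those lower in libraries numbered 1 were the pseudogene Gm10123, the flap endonuclease gene Fen1, the acyltransferase gene Gpam, Hephl1 and the ribosomal protein gene Rps2, with log2 differences of −1.27, −1.44, −0.98, −2.60 and −0.86 and adjusted p of 0.147 to 0.184. DESeq2 called each of these 8. With number as the only term edgeR called Tspan14 (0.0195), B4galt6 (0.0201), Tmem184a (0.0468) and Gpam (0.0415), and in the fits without 1 library B4galt6 passed the edgeR threshold without Control 1 or without NT4 1.

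For each listed gene, the tested gene with the most similar pattern was found as the smallest Euclidean distance between centred log2 CPM over the 4 libraries, among 14322 genes with a mean of at least 1 CPM. The closest matches were Sytl2 to Mapk14 (distance 0.0468), BC065397 to Prps2 (0.0898), Olfml2a to Zfp740 (0.102), Rnf32 to Nfix (0.126) and Tspan14 to Pttg1ip (0.190). Gm6166 was nearest both to Psd3 (0.374) and to March8 (0.426), and AC157931.1 to Mir686 (0.571). Sox12 and Nanp had no close match: the nearest were Hephl1 at 1.87 and Gm15429 at 3.24. Sytl2, for example, was at 46.6 CPM in Control 1, 43.9 in NT4 1, 21.0 in Control 2 and 21.2 in NT4 2. The distances for Nanp and Mir686, which lay at or below the floor in some libraries, depend on the prior count. With 4 points, each distance describes only these libraries.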

How the data were processed

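Bulk RNA of granulosa cells was sequenced in 4 libraries, 2 Control and 2 NT4. The deposited values are estimated counts per gene, which the authors made from reads aligned with HISAT2 (build mm10, and FastQC and edgeR are also named in the submitters' processing notes) and assembled with StringTie. How whole counts were made from that output, and whether strand was used, is not given in the sources used here. Of counts from 1 to 12, 45.4 to 46.2% were 4, 8 or 12, so about 4 counts were taken as 1 read pair. The per-library files held the same values as the joint table.

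Symbols and GRCm38 coordinates came from GENCODE M21 (55144 of 55385 IDs matched), sequences from RefSeq GRCm38.p6. CPM used library totals, and log2 CPM a prior count of 2. Each SE of a log2 difference was the size of that difference divided by the square root of the edgeR F statistic. Counts were rounded and tested with edgeR 4.0.16 (R 4.3.3): TMM scaling, a count filter (minimum 10), a quasi-likelihood test with group and number as terms for the numbers and group alone for NT4, and Benjamini-Hochberg adjustment over 19259 genes at 0.05. The script was tested on simulated data. Alternatives were DESeq2 1.42.0, other scalings and filters, counts divided by 4, overlapping genes summed, each library left out and a replicate block. A GC trend removed and libraries thinned to equal depth were added after seeing the data. The summed pairs were Mir686 with Psmb5 and Nanp with Ninl, which share exon bases on the same strand.

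The listed genes and the lists were chosen with earlier results of these data known. Genes named beside them were those overlapping in exons, the flanking genes, closest paralogues, the most similar gene, and the 5 higher and 5 lower genes outside the list with the smallest p. Of the flanking and overlapping genes, only those a result turned on are named, chosen after their values were seen. Of the marker lists, 1 is not reported here.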

Additional observations from a re-analysis of the deposited data

Results flagged for a closer look

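Each of these results moved in opposite directions in the 2 groups or the 2 numbers compared, and none of the differences was tested. For Nfix, NT4 over Control was 0.07 in libraries numbered 1 and −0.19 in those numbered 2, a difference of 0.25 on the log2 scale. The others are differences of the number effect (number 1 over number 2, log2) between Control and NT4. Mapk11, at 0.565 to 1.18 CPM, was at −0.65 in Control and 0.80 in NT4, a difference of −1.45. Nfia was at 0.03 in Control and −0.26 in NT4, a difference of 0.28. Ninl was at −0.06 and 0.06, a difference of −0.12, and Prps1 at −0.02 and 0.06, a difference of −0.086.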

How the results depend on the processing

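The 7 genes called between numbers became 1 with library totals as scaling, 0 without a filter (2134 at an unadjusted p under 0.05), 341 with DESeq2 (which gave 4481 genes no adjusted p), 1 with overlapping genes summed, 21 with number as the only term (6 of them among the 7), and 0 to 21 with 1 library left out, fits that also held number as the only term. It was 7 with DESeq2 size factors, a CPM filter, the GC trend removed or thinned libraries, and 6 with counts divided by 4. The 0 genes called between NT4 and Control became 10 without a filter, 65 with DESeq2 and 0 to 37 with 1 library left out (12 without Control 1 and 37 without Control 2), and the 0 relatives called became 1 with DESeq2. The causes were not tested.

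The 10 listed genes kept their direction between numbers under every alternative except overlapping genes summed, which turned Mir686 to −0.28. They were chosen for a difference between numbers in both groups, so a kept direction follows largely from the choice. Ninl turned to −0.0063 without a filter, −0.16 summed with Nanp, −0.0022 with number alone and −0.00092 thinned. With the GC trend removed Prps1 turned to −0.013 and Nfic to 0.029. With 1 library left out, the number difference ranged from −0.12 to 0.11 for Ninl, −0.075 to 0.10 for Prps1, −0.48 to 0.59 for Mapk11, −0.35 to 0.11 for Nfia. Sumo3 ranged from −1.56 to −0.63, Dand5 from −1.04 to −0.47, Psd from −0.94 to −0.42, March1 from 0.44 to 1.39, Trmt1 from 0.15 to 0.35, Zcchc3 from −0.20 to −0.048, Csad from 0.024 to 0.16, Nfib from 0.032 to 0.22 and Nfic from −0.11 to −0.026, without a change of sign. In those fits, which used number alone, the lone library is assumed to vary like the others.

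Leaving out 1 library unbalances the numbers between groups, and NT4 over Control then ranged from −3.27 to 3.75 for Sox12, −1.16 to 1.37 for March8, −0.89 to 0.85 for Nfix, −1.35 to 1.10 for Psd3, −10.80 to 10.31 for Nanp, −1.27 to 1.49 for Zfp740, −6.85 to 6.90 for Mir686, −1.19 to 1.07 for Pttg1ip, −0.94 to 0.78 for Prps2, −0.68 to 0.62 for Mapk14.

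With the replicate number as a block, NT4 against Control still called 0 genes (580 at an unadjusted p under 0.05), and the listed genes lay between −0.50 and 0.23 with SEs of 0.088 to 0.37 and a smallest unadjusted p of 0.105 (Sox12). The labels give no pairing. After each group's mean was subtracted, libraries with the same number had a correlation over 19259 genes of 0.14 (Pearson) or 0.26 (Spearman), a figure over genes, which are not replicates.

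Depth limits Nanp and Mir686, at or below the floor of 3 read pairs in 2 libraries each, so that their fitted log2 values depend on the prior count and are no bounds, and only 2 libraries per number stand behind each difference.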
